A study of Mus musculus with 451 samples.

Results

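The small leucine-rich proteoglycans are secreted proteins of the extracellular matrix. A core of leucine-rich repeats binds fibrillar collagen, and in tendon the family is known for setting how thick collagen fibrils grow and how they are spaced. Several members also bind growth factors such as TGF-beta and hold them in the matrix. The 10 genes described here were chosen by name. They are the class I members Dcn, Bgn and Aspn, the class II members Fmod, Lum, Kera, Prelp and Omd, and the class III members Epyc and Ogn. All 10 were found in the deposited count table, which lists 48795 symbols. Reads were present for 25841 of them.

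The cells came from tail tendons of C57BL/6 mice aged 4 weeks, either wild type (WT) or lacking the homeobox gene Mkx (Mkx-/-), a transcription factor of the tendon lineage. Tendons were digested with collagenase, and single cells were captured on a microfluidic chip and sequenced one library per cell. The Mkx-/- mice served the study as a model in which tendons ossify. There were 227 WT and 224 Mkx-/- cells, with 13076 to 335813 reads per cell. The labels name no animal or chip for any cell, so each genotype counted as 1 sample. No test between genotypes was therefore possible, and animal, chip and genotype cannot be told apart. All intervals below are exact 95% intervals that cover counting error only, and reads without molecular identifiers are not independent molecules. No 2 cells had identical counts.

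Cells were divided by tenomodulin (Tnmd), a membrane protein of mature tendon cells that is no member of the family. Cells with a Tnmd level of 10 or more on the log2(CPM + 1) scale, where CPM is counts per 1000000 reads of the cell, are called tenocyte-like here. They were 78 of 227 WT cells (34.4%, interval 28.2 to 40.9) and 84 of 224 Mkx-/- cells (37.5%, 31.1 to 44.2). The remaining cells, 65.6% of WT and 62.5% of Mkx-/-, are called other cells. The limit fell in a sparsely filled range, with 1 WT and 2 Mkx-/- cells between 9 and 10 and 11 WT and 8 Mkx-/- cells between 10 and 11. The WT cell just under the limit had 1751 CPM of Fmod, and the 2 Mkx-/- cells there together had 1545 CPM, against 2777 and 3558 CPM in the cells just over it. The tenocyte markers that took no part in the split followed it. Col1a1 stood at 107650 CPM in tenocyte-like and 7142 CPM in other WT cells, and Scx at 93.1 and 1.28 CPM. The targeted gene Mkx had 68.2 CPM in WT and 29.1 CPM in Mkx-/- tenocyte-like cells, so reads of it remained under the Mkx-/- label. The deleted segment is not given in the sources used here.

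The 4 genes that stood more than 2-fold higher in Mkx-/- tenocyte-like cells, Bgn, Prelp, Epyc and Ogn, lie at 4 places in the genome. The 250 bases before an annotated start of each are shown to let these regions be compared (RefSeq, GRCm38.p6, 5′ to 3′ on the strand of the gene). Capitals mark each match to TATAAA or to CANNTG, the letters of an E-box, which basic helix-loop-helix factors such as Scx bind. Both strands were searched.
Bgn, chrX:73483351-73483600, plus strand: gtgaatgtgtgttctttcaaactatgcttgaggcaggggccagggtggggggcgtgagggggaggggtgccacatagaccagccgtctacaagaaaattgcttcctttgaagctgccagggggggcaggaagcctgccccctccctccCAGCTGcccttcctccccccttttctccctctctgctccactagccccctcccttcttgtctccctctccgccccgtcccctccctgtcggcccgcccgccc
Prelp, chr1:133921402-133921651, minus strand: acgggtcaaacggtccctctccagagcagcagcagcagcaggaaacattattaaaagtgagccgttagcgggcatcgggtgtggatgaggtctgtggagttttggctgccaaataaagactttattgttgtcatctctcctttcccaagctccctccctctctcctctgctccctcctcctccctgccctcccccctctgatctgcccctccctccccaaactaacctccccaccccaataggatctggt
Epyc, chr10:97643818-97644067, plus strand: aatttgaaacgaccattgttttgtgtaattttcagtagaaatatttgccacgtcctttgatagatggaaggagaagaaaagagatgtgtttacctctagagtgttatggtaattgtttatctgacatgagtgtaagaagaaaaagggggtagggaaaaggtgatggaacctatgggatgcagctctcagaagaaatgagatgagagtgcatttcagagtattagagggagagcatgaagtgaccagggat
Ogn, chr13:49607765-49608014, plus strand: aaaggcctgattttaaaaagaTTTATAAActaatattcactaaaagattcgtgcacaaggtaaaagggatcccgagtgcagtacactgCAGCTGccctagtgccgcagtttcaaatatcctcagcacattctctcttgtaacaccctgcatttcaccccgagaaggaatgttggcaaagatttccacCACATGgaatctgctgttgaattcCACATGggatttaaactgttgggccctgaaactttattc

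The Ogn window held 3 matches to CANNTG and 2 overlapping matches to TATAAA, 1 on each strand. The Bgn window held 1 match to CANNTG and none to TATAAA, and the Prelp and Epyc windows held neither. Of 32851 promoter windows of the same length, 66.2% held CANNTG and 12.4% held TATAAA. The 4 windows also differed in composition, since G and C made up 64.4% of the Bgn window, 55.6% of the Prelp window, 42% of the Ogn window and 39.2% of the Epyc window. A match is a description of these letters and not a binding site. The table held windows for 8 of the 10 members, none of them for Dcn or Lum. The Prelp window lies upstream of an inner start, within the span of the gene (133910304 to 133930102), and Epyc has a second annotated start whose window is not shown.

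Dcn (decorin), which carries a dermatan or chondroitin sulfate chain and is the main proteoglycan of tendon, gave the most reads of the family in both cell sets and both genotypes. Levels per kilobase divide CPM by the joined length of all exons annotated for the gene (GENCODE). Whether reads follow exon length in these libraries was not tested. Per kilobase of exon, Dcn also had the highest level, at 4360 CPM per kb in WT tenocyte-like cells. Fmod (fibromodulin), which binds type I collagen and carries keratan sulfate, followed at 1269 CPM per kb and Kera (keratocan, best known from the cornea) at 365 CPM per kb. Lum, Ogn, Aspn, Prelp and Bgn lay between 133.2 and 68.5 CPM per kb there, and Epyc and Omd at 5.09 and 3.22 CPM per kb. In WT other cells the order after Dcn was different. Aspn (asporin), a class I member with a run of aspartates, was next at 504 CPM per kb. Lum (lumican) at 317, Prelp at 282 and Bgn at 131.6 CPM per kb came before Fmod at 20.03 CPM per kb. Without division by length, Prelp, at 1019 CPM, came before Lum, at 658 CPM.

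Together the 10 genes took 1.46% of the reads of WT and 1.85% of those of Mkx-/- tenocyte-like cells. In other cells the shares were 0.971% and 1.06%. The per-cell share ran from 0.518% to 2.78% over WT tenocyte-like cells, with a median of 1.55%, and from 0.880% to 3.52% over Mkx-/- tenocyte-like cells, with a median of 1.86%. The ranges of the genotypes overlapped. The median cell had reads of 7 of the 10 genes in WT and of 8 in Mkx-/- tenocyte-like cells, and of 6 and 7 in other cells. The median depth was 81693 and 72272 reads in WT and Mkx-/- tenocyte-like cells and 41921 and 46389 reads in other cells.

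**Figure D1:**
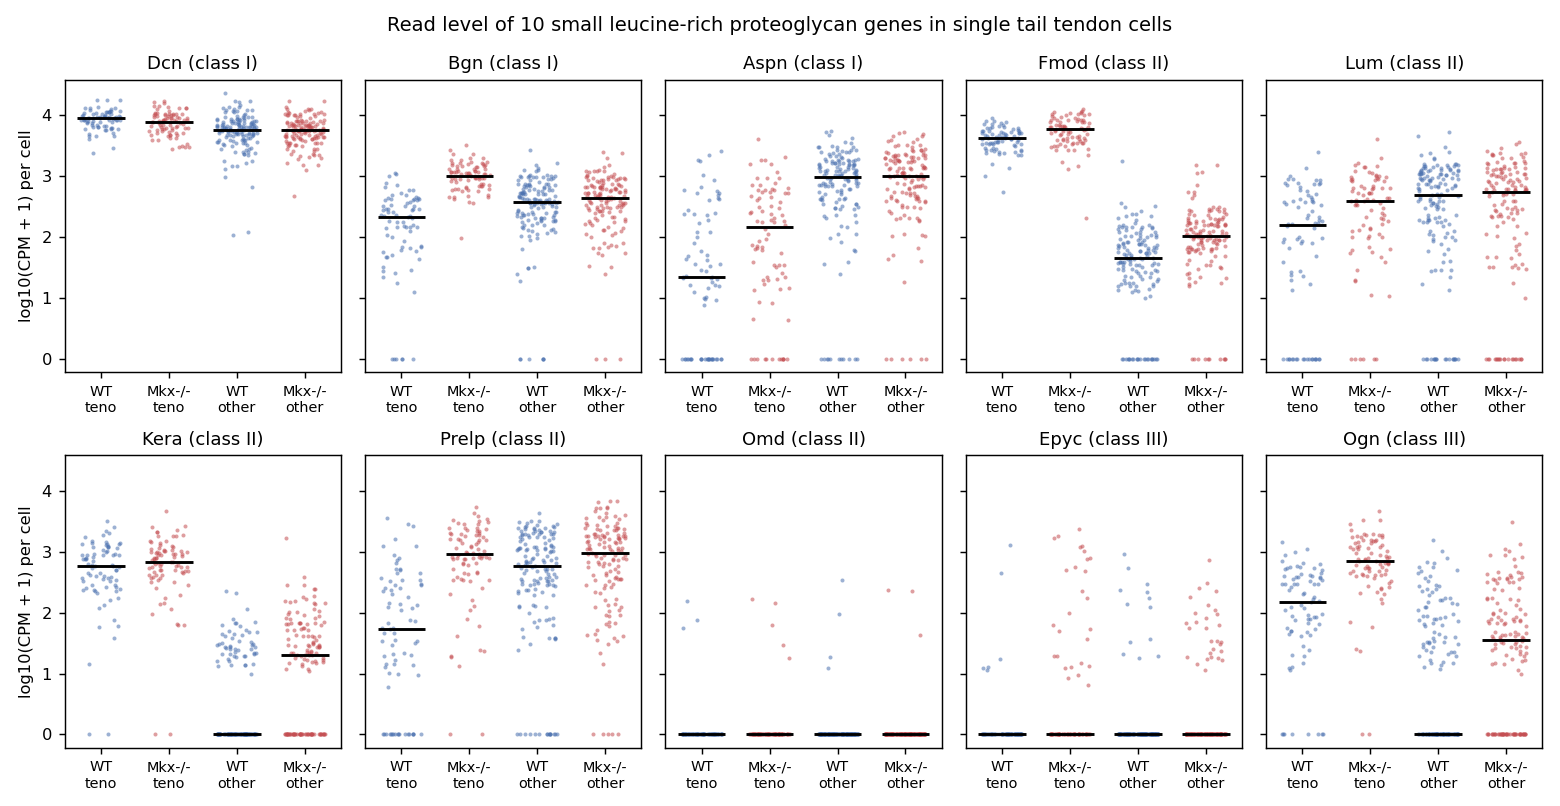
Each point is 1 cell and each panel 1 gene, with the level as log10(CPM + 1) on the vertical axis. Tenocyte-like (teno) and other cells of WT (blue) and Mkx-/- (red) are side by side, black bars are medians over cells, and cells without a read lie at 0. Bgn had a median of 212.4 CPM in the 78 WT and 1029 CPM in the 84 Mkx-/- tenocyte-like cells, whereas the Dcn clouds lie at nearly one height.

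In tenocyte-like cells, Bgn, Prelp, Epyc and Ogn were more than 2-fold higher in Mkx-/- than in WT, and no member was more than 2-fold lower. Of 8357 genes with at least 100 reads in these cells, 13.5% were more than 2-fold higher and 6.7% more than 2-fold lower. The median log2 ratio over the 10 members was 0.70, and that over all these genes was 0.20. The type I collagen genes took a smaller share of Mkx-/- reads, with 78900 CPM of Col1a1 after 107650 CPM in WT and 103987 CPM of Col1a2 after 154018 CPM in WT, and the CPM of other genes is raised by such a difference. Relative to that median of all genes, the log2 ratios described below were 3.50 for Epyc, 2.01 for Bgn, 1.98 for Prelp, 1.66 for Ogn, 0.63 for Lum, 0.36 for Aspn, 0.25 for Fmod, 0.08 for Kera and -0.34 for Dcn. In other cells the median of all genes was 0.01, and the ratios there are given as they are. Of the class medians, those of classes I and II were 0.56 and 0.45, and the 2 class III members had a median of 2.78.

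Bgn (biglycan), the close relative of Dcn that carries chondroitin or dermatan sulfate chains, differed most evenly from cell to cell. WT tenocyte-like cells ran from 0 to 1128 CPM with a median of 212.4 CPM, and Mkx-/- tenocyte-like cells from 95.4 to 3264 CPM with a median of 1029 CPM. Of the 84 Mkx-/- cells, 83 lay over the WT median and 37 over the highest WT cell, and 25 WT cells lay under the lowest Mkx-/- cell. In summed counts Bgn had 244 CPM (interval 232 to 256) in WT and 1128 CPM (1104 to 1153) in Mkx-/-. The log2 ratio was 2.21 (2.13 to 2.29).

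Prelp, a class II member with an arginine- and proline-rich end that binds heparan sulfate, was close to Bgn in size but less even. WT tenocyte-like cells ran from 0 to 3672 CPM with a median of 53.4 CPM, and Mkx-/- cells from 0 to 5516 CPM with a median of 911 CPM. The ranges overlapped, and 76 of 84 Mkx-/- cells lay over the WT median but 3 over the highest WT cell. Summed counts gave 273 CPM in WT and 1243 CPM in Mkx-/-, a log2 ratio of 2.19 (2.11 to 2.26). Reads were seen in 76.9% of WT cells (66 to 85.7) and 97.6% of Mkx-/- cells (91.7 to 99.7). At an equal but lower depth of 13000 reads per cell the expected shares were 52.9% and 90.9%. The difference in detection was larger there, and the part of the lower depth in this was not tested.

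Ogn (osteoglycin, also called mimecan), a class III member first described in bone, ran from 0 to 1457 CPM in WT tenocyte-like cells with a median of 151.7 CPM. In Mkx-/- cells it ran from 0 to 4723 CPM with a median of 714 CPM. Of the 84 Mkx-/- cells 77 lay over the WT median and 20 over the highest WT cell. Summed counts gave 243 CPM (231 to 255) and 882 CPM (860.1 to 904), a log2 ratio of 1.86 (1.78 to 1.94).

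Epyc (epiphycan), a class III member known from growth plate cartilage, was rare in WT and read in more cells of Mkx-/-. Reads were found in 6 of 78 WT tenocyte-like cells (7.69%, interval 2.88 to 15.99) and in 27 of 84 Mkx-/- cells (32.1%, 22.4 to 43.2). At 13000 reads per cell the expected shares were 3.40% and 20.3%. The highest cell reached 1299.8 CPM in WT and 2416 CPM in Mkx-/-. Summed counts gave 13.04 CPM from 86 reads in WT and 169.7 CPM from 1218 reads in Mkx-/-, a log2 ratio of 3.70 (3.39 to 4.03). A single WT cell held 76.7% of the WT reads. Without the leading cell, which has the most reads of the gene, in each genotype the log2 ratio was 5.60, and as the mean of per-cell CPM it was 2.78. In cells with at least 2500 detected genes it was 8.43 (6.88 to 10.71), from 3 WT and 1218 Mkx-/- reads. Its size thus rests on few cells, while more cells carried it in Mkx-/-. Markers of chondrocytes were also read in tenocyte-like cells, but whether in the same cells as Epyc was not examined. Of the 8 markers listed, 6 were in the count table. The list summed to 578 CPM in WT and 480 CPM in Mkx-/- tenocyte-like cells, with Matn1 at 0, the cell medians at 497 and 381 CPM and the cells ranging from 0 to 3078 and from 0 to 1901 CPM. The members of the list went different ways. Matn3 had 11.2 CPM in WT and 77.5 CPM in Mkx-/-, a log2 ratio of 2.79 (2.44 to 3.16), and Acan had 17.4 and 37.8 CPM, whereas Col2a1 had 324 and 221.8 CPM, Sox9 219.3 and 140.9 CPM, and Hapln1 6.07 and 2.09 CPM. Their part in the Epyc values was not tested.

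The remaining members differed less. Lum, which shares a collagen binding site with Fmod, had a median of 158.4 CPM over WT and 387 CPM over Mkx-/- tenocyte-like cells, with cells from 0 to 2525 and from 0 to 4118 CPM. Its summed level was 276 CPM in WT and 492 CPM in Mkx-/-, a log2 ratio of 0.83 (0.75 to 0.92). Aspn had medians of 20.7 and 146.9 CPM and summed levels of 213.2 and 314 CPM, a log2 ratio of 0.56 (0.46 to 0.66). For both genes the ranges overlapped almost throughout, with 1 Mkx-/- cell over the highest WT cell in each. Fmod was read in every tenocyte-like cell, from 559 to 9048 CPM with a median of 4218 CPM in WT and from 203.6 to 12884 CPM with a median of 5897 CPM in Mkx-/-. Its summed level was 4195 CPM in WT and 5747 CPM in Mkx-/-, a log2 ratio of 0.45 (0.43 to 0.48). Kera had 720.5 CPM in WT and 876 CPM in Mkx-/-, a log2 ratio of 0.28 (0.23 to 0.34), close to the median of all genes.

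Dcn stood apart from its close relative Bgn. WT tenocyte-like cells ran from 2403 to 18253 CPM with a median of 8964 CPM, and Mkx-/- cells from 2828 to 16973 CPM with a median of 7843 CPM. The ranges overlapped nearly in full. Summed counts gave 8446 CPM in WT and 7687 CPM in Mkx-/-, a log2 ratio of -0.14 (-0.15 to -0.12). Omd (osteomodulin, or osteoadherin), a class II member known from mineralizing bone, was close to undetected. It had 33 reads in 3 of 78 WT and 35 reads in 5 of 84 Mkx-/- tenocyte-like cells. Its log2 ratio of -0.04 had a counting interval of -0.77 to 0.69. A single WT cell held 45.5% of the WT reads. The interval does not cover the spread between so few cells, so it sets no limit on the size of a difference. Of the 6 osteoblast markers listed, Ibsp and Sp7 had no read in either genotype, and Alpl and Dmp1 had 4 and 2 reads in WT and 1 and 0 in Mkx-/- tenocyte-like cells and none in other cells. Bglap had 11.7 CPM in WT and 5.30 CPM in Mkx-/- tenocyte-like cells and 13.2 and 17.6 CPM in other cells. Bglap2 had 14.6 and 6.83 CPM in tenocyte-like cells and 5.83 and 37.9 CPM in other cells. The list summed to 27.1 CPM in WT and 12.3 CPM in Mkx-/- tenocyte-like cells and to 19.04 and 55.5 CPM in other cells, with single cells between 0 and 1381 CPM. The part of such cells in the Omd and Ogn values was not tested.

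**Figure D2:**
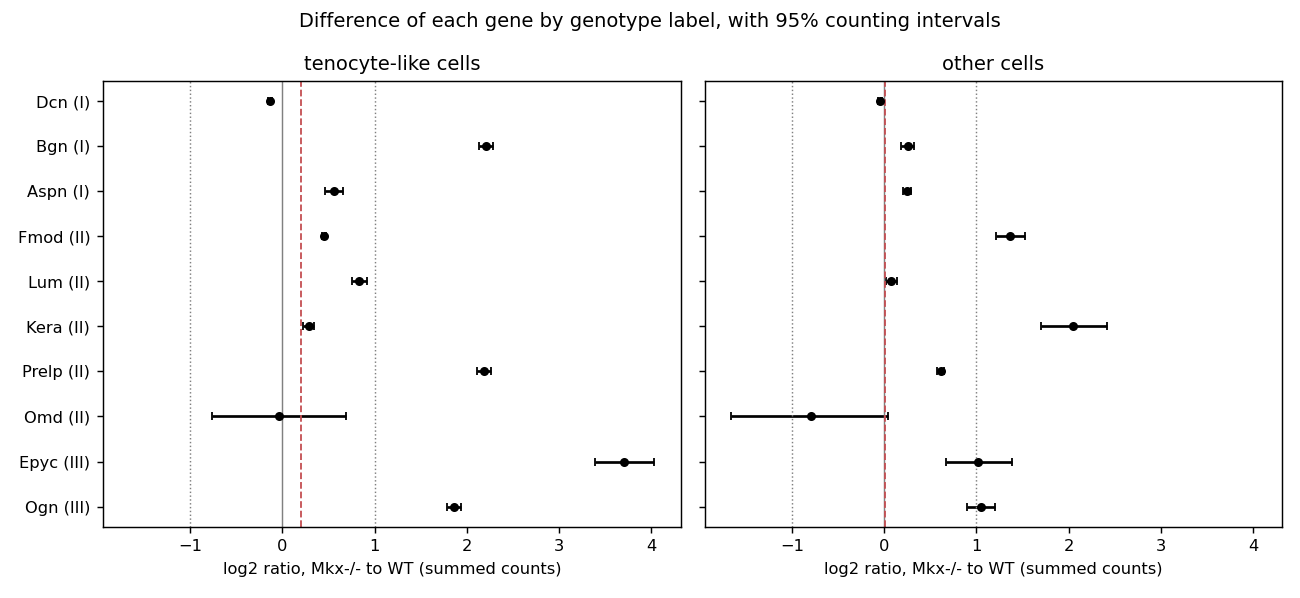
Points are log2 ratios of Mkx-/- to WT summed counts in CPM for each gene (class in brackets), bars are 95% counting intervals, dotted lines mark 2-fold, and the dashed red line is the median of all genes with at least 100 reads. In tenocyte-like cells Bgn (2.21), Prelp (2.19), Epyc (3.70) and Ogn (1.86) lie past 2-fold, and in other cells Fmod (1.37), Kera (2.05), Epyc (1.02) and Ogn (1.05) do.

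Because Dcn was lower and other members higher, the makeup of the family was different in Mkx-/- tenocyte-like cells. Dcn gave 57.7% of the reads of the 10 genes in WT and 41.5% in Mkx-/-. Prelp gave 1.86% and 6.70%, Bgn 1.67% and 6.08%, Ogn 1.66% and 4.75%, and Epyc 0.0892% and 0.915%. Fmod gave 28.7% and 30.99%. These are shares of reads, and whether reads follow transcript length in these libraries was not tested. In other cells the makeup was closer between genotypes, with Dcn at 63.9% and 56.6%, Prelp at 10.5% and 14.6%, Aspn at 12.2% and 13.2% and Bgn at 4.83% and 5.25%.

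**Figure D3:**
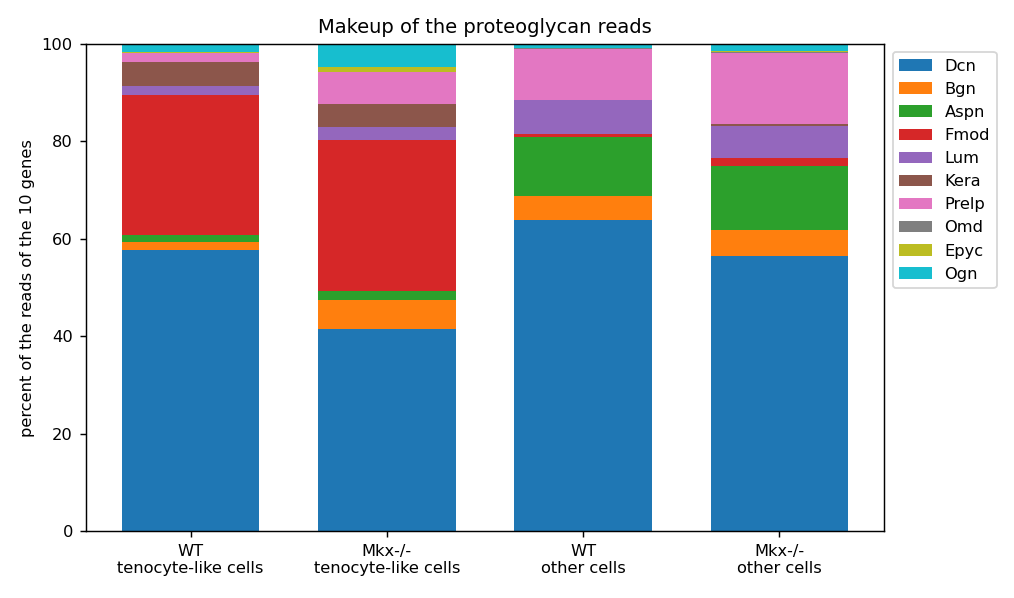
Stacked bars give the percent of the reads of the 10 genes that came from each gene, for WT and Mkx-/- tenocyte-like and other cells. Dcn and Fmod made up most of the tenocyte-like bars, at 57.7% and 28.7% in WT and 41.5% and 30.99% in Mkx-/-, and Fmod was nearly missing from the bars of other cells.

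In other cells, 4 members were more than 2-fold higher in Mkx-/-, and they were partly different ones, namely Fmod, Kera, Epyc and Ogn. None was more than 2-fold lower. Of 9343 genes with at least 100 reads in other cells, 7.42% were more than 2-fold higher and 6.68% more than 2-fold lower, and the median log2 ratio was 0.43 over the members and 0.01 over all genes. Over all cells without the split, Bgn, Prelp, Epyc and Ogn were more than 2-fold higher, beside 7.23% of 10963 genes higher and 6.12% lower. Bgn and Prelp lost this call as the mean of per-cell CPM, with a log2 ratio of 0.92 each.

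Fmod was read in 85.2% of WT (78.5 to 90.5) and 92.9% of Mkx-/- other cells (87.3 to 96.5), with medians of 43.8 and 102.7 CPM and highest cells of 1751 and 1553 CPM. Summed counts gave 66.2 CPM (60.4 to 72.5) and 170.6 CPM (161.05 to 180.6), a log2 ratio of 1.37 (1.21 to 1.52). Kera was read in 35.6% of WT (27.9 to 43.8) and 63.6% of Mkx-/- other cells (55.02 to 71.5), and in 14.4% and 33.1% at 13000 reads per cell. Its summed level was 11.9 CPM in WT and 49.5 CPM in Mkx-/-, a log2 ratio of 2.05 (1.70 to 2.41). These low levels were a small part of those in tenocyte-like cells. The level of Fmod in other cells was 1.58% of that in tenocyte-like cells in WT and 2.97% in Mkx-/-, and that of Kera 1.66% and 5.65%. Of 9 other genes read mainly in tenocyte-like cells, the share was higher in Mkx-/- for 7, among them Tnmd at 1.41% and 2.35%, Col11a2 at 1.13% and 4.27% and Scx at 1.37% and 8.88%. It was lower for 2, Thbs4 at 23.8% and 12.98% and Chad at 6.08% and 4.11%. Tnmd itself had 53.3 CPM in WT and 115.4 CPM in Mkx-/- other cells, and 29 WT but 6 Mkx-/- cells had no Tnmd read. The part of RNA carried over from tenocytes in these values was not tested. Leaving out other cells with a Tnmd level of 8 or more, an alternative chosen after seeing the data, gave log2 ratios of 1.32 for Fmod and 1.87 for Kera. Cells divided by their level of Col1a1, Col1a2, Col11a2 and Sparc in place of Tnmd gave 2.27 and 2.93. With the Tnmd limit at 11 they were 0.41 and 1.15. That limit counts the 11 WT and 8 Mkx-/- cells between 10 and 11 among the other cells, and their part in these values was not tested.

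Ogn in other cells had 75.3 CPM in WT and 155.7 CPM in Mkx-/- and was read in 48.3% and 67.9% of cells, with highest cells of 1577 and 3084 CPM. The log2 ratio was 1.05 (0.90 to 1.20), and 0.76 as the mean of per-cell CPM. Epyc had 14.1 CPM from 13 cells and 28.6 CPM from 29 cells, and 1 Mkx-/- cell gave 45.7% of the Mkx-/- reads. Its log2 ratio of 1.02 (0.67 to 1.38) was 0.58 without the leading cells and 0.11 as the mean of per-cell CPM. Both genes thus passed 2-fold narrowly in other cells. Prelp, at 1019 and 1556 CPM, had a log2 ratio of 0.61 (0.57 to 0.65). Bgn (469 and 559 CPM) and Aspn (1183 and 1405 CPM) had log2 ratios of 0.25 each, and Lum (658 and 695 CPM) one of 0.08. Dcn had 6206 and 6024 CPM, a log2 ratio of -0.04 (-0.06 to -0.02). Omd had 35 and 20 reads, with a log2 ratio of -0.79 whose interval of -1.66 to 0.04 held 0, and 1 WT cell held 77.1% of the WT reads. Without the leading cells the Omd ratio was 0.46.

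The difference between cell sets was itself not the same in the genotypes. Bgn was lower in tenocyte-like than in other cells of WT, at 244 against 469 CPM, and higher in those of Mkx-/-, at 1128 against 559 CPM. The log2 ratios of tenocyte-like to other cells were -0.94 (-1.03 to -0.86) and 1.01 (0.96 to 1.07). Such a turn from lower in WT to higher in Mkx-/-, with both counting intervals off 0, was seen for 466 of 8289 genes (5.62%), and Bgn was the member among them. Epyc was alike in the 2 sets of WT, with a log2 ratio of -0.11 (-0.54 to 0.32), and higher in tenocyte-like cells of Mkx-/-, with one of 2.57 (2.35 to 2.79).

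Fmod and Kera were the members most restricted to tenocyte-like cells. Their log2 ratios of tenocyte-like to other cells were 5.99 and 5.92 in WT and 5.07 and 4.15 in Mkx-/-. Ogn was also higher there, with 1.69 in WT and 2.50 in Mkx-/-, and Dcn slightly so, with 0.44 and 0.35. Aspn, Prelp and Lum were higher in other cells. The ratio was -2.47 in WT and -2.16 in Mkx-/- for Aspn, -1.90 and -0.32 for Prelp, and -1.25 and -0.50 for Lum. In each of these 3 genes the cell sets were closer in Mkx-/-. They were also closer for Fmod, Kera and Dcn, and further apart for Ogn, Epyc and Omd. The share of all genes with closer cell sets in Mkx-/- was not counted. No test of these differences between genotypes was possible.

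**Figure D4:**
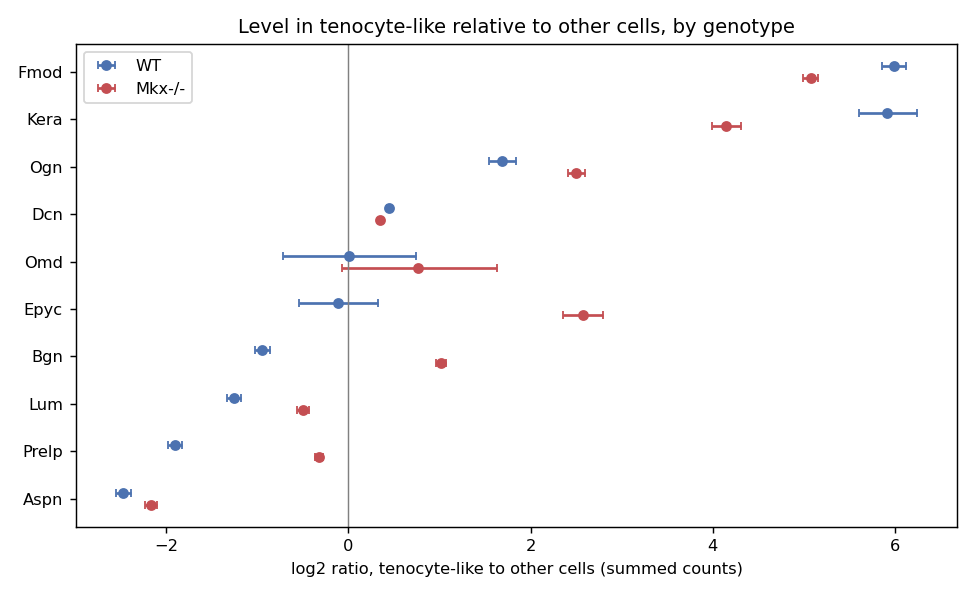
Points are log2 ratios of tenocyte-like to other cells in summed counts in CPM for each gene, in WT (blue) and Mkx-/- (red), with 95% counting intervals. Bgn lies at -0.94 in WT and 1.01 in Mkx-/-, on opposite sides of 0, and Fmod and Kera lie between 4.15 and 5.99 in both.

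Within tenocyte-like cells the members also followed Tnmd differently. From cells with a Tnmd level of 10 to under 12 to cells at 12 and over, Fmod went from 3543 to 5104 CPM in WT and from 4494 to 6833 CPM in Mkx-/-. Aspn went the other way, from 275 to 127.5 CPM in WT and from 388 to 249.7 CPM in Mkx-/-. Bgn had 215.03 CPM (200.6 to 230.2) and 284 CPM (265 to 305) in WT, higher at the higher Tnmd level, and 1085 CPM (1050 to 1121) and 1165 CPM (1132 to 1200) in Mkx-/-, so its difference by genotype was present at both Tnmd levels. Prelp had 283.5 and 258 CPM in WT and 1242 and 1244 CPM in Mkx-/-, so its difference was present at both as well. Epyc had 85 reads at the lower and 1 read at the higher Tnmd level of WT, and 397 and 821 reads in Mkx-/-. These bins held 44 and 34 WT cells and 36 and 48 Mkx-/- cells.

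From cell to cell, Aspn and Fmod were inversely related in tenocyte-like cells of both genotypes. Spearman's rho was -0.55 over 78 WT cells and -0.47 over 84 Mkx-/- cells, and -0.50 and -0.39 on counts thinned to 13000 reads. The labels name no animal or chip for any cell, and cells differed in depth, so these are descriptions. Fmod followed Tnmd (thinned rho 0.38 in WT and 0.55 in Mkx-/-) and so did Kera (0.40 and 0.44). Dcn and Bgn, the closest relatives, had a thinned rho of 0.12 in WT. The genes outside the family whose level over cells was most like that of Aspn were Col3a1, Mfap5 and Fbn1, where likeness is the lower of the thinned rho values of the genotypes among 1828 genes. The likeness was 0.56, 0.51 and 0.51. For Fmod they were Serpinf1 (0.51), Sparc (0.45) and Col1a2 (0.44), for Kera Tnmd (0.40), Wif1 (0.37) and Serpinf1 (0.33), and for Prelp Sulf1 (0.32), Glud1 (0.31) and Emilin2 (0.24). For Dcn, Bgn, Lum and Ogn no gene reached a likeness of 0.30.

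Most members lie in clusters on the chromosomes. On chromosome 10 Dcn (97479500 to 97518163), Lum (97565501 to 97572703), Kera (97606962 to 97613688) and Epyc (97644068 to 97681908) span 202.4 kb in that order (RefSeq, GRCm38.p6). Their log2 ratios in tenocyte-like cells were -0.14, 0.83, 0.28 and 3.70, so neighbours there did not share a size of difference. On chromosome 13 Aspn (49544443 to 49567565), Omd (49582462 to 49592612) and Ogn (49608015 to 49624501) span 80.1 kb, with log2 ratios of 0.56, -0.04 and 1.86. Beside them lies Ecm2, a matrix gene, whose level was 87.2 CPM in WT against 206.9 CPM in Mkx-/- tenocyte-like cells and 106.6 against 274 CPM in other cells, with log2 ratios of 1.25 and 1.36. Of the 3 listed neighbours with at least 100 reads in tenocyte-like cells, Ecm2 was the 1 more than 2-fold higher, beside 13.5% of all genes. Ecm2 was again 1 of 3 in other cells, beside 7.42% of all genes. It and the 3 members lie inside the span of Cenpp, a centromere gene. Whether their exons overlap those of Cenpp was not examined. The strand setting of the counting is not given, so reads of any overlapping exons there cannot be told apart. Cenpp had 31 reads in WT and 1 read in Mkx-/- tenocyte-like cells, against 1603 and 6327 for Ogn. Prelp and Fmod span 137.98 kb on chromosome 1, with log2 ratios of 2.19 and 0.45. Optc, a family member next to Prelp, had 2 reads in WT and 21 in Mkx-/- tenocyte-like cells. Bgn is alone on chromosome X (73483601 to 73495936).

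Of the other genes of the family, Chad (chondroadherin), a cartilage matrix protein that binds collagen and integrins, was the one with many reads. It had 309 CPM in WT and 771 CPM in Mkx-/- tenocyte-like cells, a log2 ratio of 1.32 (1.25 to 1.39), and 18.8 and 31.7 CPM in other cells, a log2 ratio of 0.76 (0.44 to 1.08). Tsku had 0 reads in WT and 20 in Mkx-/- tenocyte-like cells, and 17 and 28 in other cells. Podn had 0 and 4 reads in tenocyte-like and 17 and 6 in other cells, Podnl1 had 8 reads, all in WT other cells, and Chadl had 3 reads in all. Nyx had none. These counts are too few to compare.

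Of the 12 listed enzymes that build the glycosaminoglycan chains or sulfate tyrosines, 8 had at least 100 reads in tenocyte-like cells, and 3 of these were more than 2-fold higher in Mkx-/-, beside 13.5% of all genes. They were B4galt7 and B3galt6, which add galactose to the linker that joins chain and core protein, and Tpst2, which sulfates tyrosines. Their levels were 5.16 and 14.6 CPM for B4galt7, 3.94 and 11.01 CPM for B3galt6, and 8.95 and 35.5 CPM for Tpst2 in WT and Mkx-/-. No enzyme was more than 2-fold lower there, beside 6.7% of all genes, and in other cells 1 of 8, B3galt6, was, at 10.4 and 4.02 CPM, beside 6.68% of all genes. The median log2 ratio of the enzymes was 0.10 in tenocyte-like and 0.03 in other cells.

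Of 14 listed proteases and growth factor partners, 11 had at least 100 reads in tenocyte-like cells. Of these 11, 2 were more than 2-fold higher in Mkx-/-, the collagenase Mmp13 and the gelatinase Mmp2, and none was more than 2-fold lower, beside 13.5% and 6.7% of all genes, so the list is close to that background. Mmp2 had 245 and 758 CPM and Mmp13 16.4 and 34.3 CPM. In other cells Mmp13, at 5.26 and 22.5 CPM, was past 2-fold among 11, beside 7.42% of all genes. The median log2 ratio of this list was 0.43 and 0.49 in the 2 cell sets.

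Of the 10 fibril collagens, Col5a1 and Col5a2, the chains of type V collagen that start fibrils, were more than 2-fold higher in Mkx-/- tenocyte-like cells, and Col11a2 was more than 2-fold lower. These counts of 2 and 1 among 10 are close to the 13.5% and 6.7% of all genes. Col5a1 had 366 and 1371 CPM, a log2 ratio of 1.91 (1.84 to 1.97), and Col5a2 had 519.5 and 1275 CPM, one of 1.30 (1.24 to 1.35). Col11a2 had 743 and 292 CPM, and its log2 ratio was -1.35 (-1.42 to -1.27). Over the list the median was 0.03. In other cells none of the 9 collagens with at least 100 reads passed 2-fold in either direction.

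Cells of other types were rare in both sets. Markers of endothelial cells summed to 65.4 CPM in WT and 3.07 CPM in Mkx-/- tenocyte-like cells, and those of macrophages and blood cells to 81.7 and 9.75 CPM. In 19 of all cells, 6 WT and 3 Mkx-/- tenocyte-like cells among them, markers of endothelial, mural, blood and red cells summed to more than 500 CPM. Without these cells, an alternative chosen after seeing the data, the log2 ratios in tenocyte-like cells were 2.11 for Bgn, 2.11 for Prelp and 3.47 for Epyc.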

How the data were processed

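Raw counts per gene and cell were used as deposited by the authors, who trimmed and filtered the paired reads, aligned them with Bowtie2 and counted them with featureCounts. Versions, strand and the treatment of multi-mapping reads are not given in the sources used here. The study's methods name mm9 and the submitters' processing notes name mm10. Counts were matched by symbol only, and positions come from RefSeq GRCm38.p6, which holds 34106 of the table's symbols. Wells holding no cell or several cells were left out by the submitters, and no doublet caller was run. The members and lists were chosen with earlier results of these data known.

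Counts were summed per genotype and cell set and scaled to counts per 1000000 reads (CPM). Ratios carry exact conditional binomial intervals at 95%, levels exact Poisson intervals, and shares exact Clopper-Pearson intervals. The ratios and their intervals were checked on summed counts simulated with Poisson error. The intervals assume that same error, so the check says nothing about spread between cells or animals. Genes outside the family counted as different when past 2-fold among those with at least 100 reads. No such floor was set for the members, of which 9 had at least 100 reads in each cell set. Over these 9 the median log2 ratio was 0.83 in tenocyte-like and 0.61 in other cells. Shares at 13000 reads per cell are hypergeometric expectations. With 1 sample per genotype no test was run. Total depth was 13630536 reads in WT and 14145394 in Mkx-/-. Genes were named by rule: all members, other family genes with a read, list genes past 2-fold, and for each member read in at least 50% of tenocyte-like cells the 3 genes most like it. Other scalings, cell weights, cell filters, Tnmd limits, a split by collagen and Sparc level and left-out leading cells were tried. Tools were pandas 2.3.3, numpy 2.4.6, scipy 1.17.1, edgeR 4.0.16 (TMM factors) and DESeq2 1.42.0 (size factors), the last 2 for scaling alone.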

Additional observations from a re-analysis of the deposited data

Results flagged for a closer look

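Some of the listed genes were higher in Mkx-/- in 1 cell set and lower in the other, with both counting intervals off 0. Only the members and the listed genes were searched, and the share of all genes with this pattern was not counted. With 1 sample per genotype the difference between cell sets was not tested in any of the genes below. The log2 ratios of Mkx-/- to WT in tenocyte-like and other cells were -0.45 and 0.37 for Col1a1, -0.57 and 0.32 for Col1a2, and -1.35 and 0.57 for Col11a2. They were 0.21 and -0.14 for Col14a1, which encodes a collagen on the fibril surface. Among enzymes of chain synthesis and sulfation they were 1.48 and -1.37 for B3galt6, 1.99 and -0.42 for Tpst2, -0.81 and 0.73 for Xylt1, which starts the chain, and -0.39 and 0.34 for Dse, which makes dermatan sulfate. For the protease Adamts4 they were -0.30 and 0.49. The values of B3galt6 rest on few reads, 26 of them in WT tenocyte-like cells. No member of the proteoglycan family was among these genes by that measure. Bgn, higher in Mkx-/- in both cell sets, turned in another ratio, that of tenocyte-like to other cells, which was -0.94 in log2 in WT and 1.01 in Mkx-/-, and this difference was not tested either.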

How the results depend on the processing

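Bgn, Prelp, Epyc and Ogn were the members more than 2-fold higher in tenocyte-like cells under each of the 12 alternatives run there. Of these 12, the mean of per-cell CPM and counts scaled to 13000 reads are the same calculation. The share of all genes past 2-fold was not recomputed under the 12 alternatives. The median over the 10 members in tenocyte-like cells was 0.70 and became 0.49 with TMM or DESeq2 scaling. It was 0.53 with CPM without the members, Col1a1, Col1a2 and Sparc, and 0.59 without cells holding markers of other types. Over all cells it was 0.47 and became 0.53 as the mean of per-cell CPM (which equals counts scaled to 13000 reads), 0.41 with TMM, 0.42 with DESeq2 scaling or CPM without those genes, 0.51 in cells with at least 2500 genes and 0.38 in cells with under 5000 genes. Per-cell CPM left 2 of the 4 members past 2-fold over all cells, Epyc and Ogn. In other cells the median of 0.43 became 0.20 with per-cell CPM and 0.52 without the leading cells. There 2 members were past 2-fold with per-cell CPM (Fmod and Kera) and 2 with a Tnmd limit of 11 (Kera and Ogn). Omd was more than 2-fold lower in cells with at least 2500 genes, on few reads. It had 35 reads in all WT and 20 in all Mkx-/- other cells. Dcn in other cells turned from -0.04 to 0.0039 with the limit at 11. The median over members of the difference in percent of tenocyte-like cells with a read, Mkx-/- minus WT, was 7.78 points and became 17.8 points at 13000 reads per cell. Among all genes with at least 10 reads in place of 100, more than 2-fold higher and lower were 21.2% and 20% in tenocyte-like, 16.5% and 17.1% in other and 14.9% and 18.8% in all cells. Of 340 values of single members under alternatives, 10 had another sign, 9 of them of Omd. This counts signs and not sizes, and many values moved in size without a change of sign. In tenocyte-like cells the log2 ratio ran from 2.00 to 2.27 for Bgn and from 2.78 to 8.43 for Epyc. In other cells it ran from 0.05 to 0.18 for Lum and from 0.41 to 2.27 for Fmod. The cause of these differences was not tested. No paired analysis was possible because the labels give the genotypes no shared replicate numbers and each genotype is 1 sample.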
